A study of Mus musculus with 8 samples.

Results

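Cardiac muscle keeps its mass by balancing protein synthesis against breakdown by the proteasome and by autophagy. FoxO transcription factors, which insulin and IGF signalling through Akt holds in the cytoplasm, are known in striated muscle as activators of the genes for ubiquitin ligases that mark sarcomere proteins for breakdown. Klf15, a zinc finger factor induced by glucocorticoids, acts beside them on some of the same genes. The 10 genes described here are 6 ligase genes (Fbxo32, Fbxo30, Trim63, Trim55, Trim54 and Mul1), the FoxO genes Foxo1, Foxo3 and Foxo4, and Klf15. They were taken by gene symbol from a table of 45706 gene rows, of which 15289 passed the filter on low counts. All 10 passed, with 267 to 7150 estimated counts in every heart.

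The hearts came from male mice aged 8 weeks. The knockout group (cKO, n = 4) had the genotype Elmsan1 fl/fl;aMHC-Cre+/-, which removes Elmsan1 where the αMHC (Myh6) promoter drives Cre recombinase, in cardiomyocytes. Elmsan1 encodes a scaffold of the MiDAC histone deacetylase complex. One control group had floxed alleles and no Cre (Elmsan1 fl/fl, "floxed", n = 2), and the other had the transgene and no floxed alleles (aMHC-Cre+/-, "Cre", n = 2). RNA was taken from whole heart, so cells in which the promoter is silent still carry the gene, and fewer cells of a type cannot be told apart from less RNA per cell. The comparison asks how transcript levels in the heart change when cardiomyocytes lose Elmsan1. "Controls" below means both control groups, each given the same weight.

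Levels are given as CPM, each library's counts brought to a common total after TMM scaling (trimmed mean of M values), and depth ranged from 17509564 to 25833259 counts a library. Elmsan1 itself, counted over the whole gene, stood at 12 to 15.5 CPM in cKO and 25.3 to 28.6 CPM in controls (log2 fold change -0.89, SE 0.11). The tissue label was checked against markers. All 10 cardiomyocyte markers were above 1 CPM in every heart, with a summed level of 51810 to 60890 CPM in cKO, 63120 to 63760 in floxed and 58850 to 63270 in Cre (3 of 10 called higher, 4 lower). Of 7 skeletal muscle markers, 5 (Myod1, Myog, Pax7, Myh1 and Myh4) were below 1 CPM in all hearts, Pax7 and Myh4 with no count at all, and the other 2 (Ckm and Tnnt3) were called higher. Ckm was abundant in every heart, controls included, at 1628 to 3097 CPM. Tnnt3 was near the floor, at no more than 1.16 CPM and 27 counts in any heart. Summed endothelial markers stood at 1109 to 1318 CPM in cKO against 814.9 to 890.2 in controls (6 of 8 called higher, 1 lower). Summed macrophage markers stood at 300.6 to 392.8 against 195.5 to 250.3 CPM (5 of 8 higher), and summed fibroblast markers at 978.2 to 1261 against 717.3 to 969.4 CPM (2 of 8 higher). No smooth muscle or pericyte marker of 8 was called, at 574.4 to 982.4 against 654.5 to 744.8 CPM. Calls are those of the edgeR test described below, in cKO against controls. Over all genes tested, 25.6% were called higher and 26.5% lower, and the fibroblast count is near that share. The part of these marker differences in the results below was not tested.

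In all, 9 of the 10 genes were lower in cKO than in controls, and Trim54, the gene of the ligase MuRF3, was higher. A gene is called at an adjusted p of 0.05 in the quasi-likelihood test of edgeR, corrected by Benjamini-Hochberg over all 15289 genes. Of these, 26.5% were called lower and 25.6% higher in cKO against controls, so the background to 9 lower and 1 higher of 10 is high in both directions. The median log2 fold change was -0.76 over the 10 genes and 0.04 over all genes tested. For each of the 10 genes all cKO values lay on 1 side of all control values, which held for 25.9% of tested genes on the lower side and 23.4% on the higher side. Scaled by library size alone, Foxo1 overlapped and the other 9 did not. With that scaling 2880 of the 15289 tested genes lay wholly on the lower side and 4388 on the higher side. In the ranking of all tested genes by log2 fold change, only 2.25% lay below Trim55 and 4.07% below Fbxo32, but 29.8% lay below Foxo1 and 29.4% below Mul1.

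**Figure D1:**
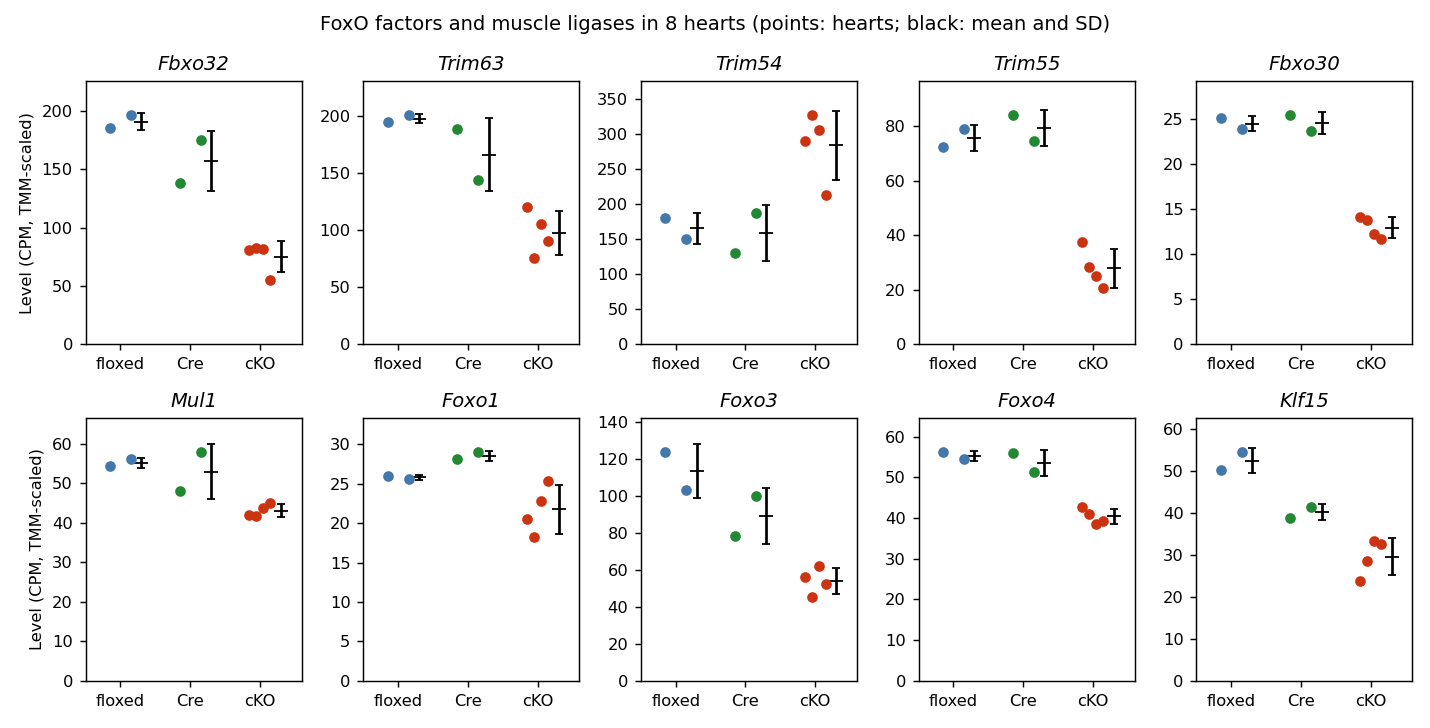
Level of each of the 10 genes in CPM (y axis, from 0) in the floxed (n = 2), Cre (n = 2) and cKO (n = 4) hearts; each point is a heart and the black bar is the group mean with its SD. Points of the cKO group lie below those of both control groups in 9 panels and above them in the Trim54 panel.

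The F-box genes Fbxo32 and Fbxo30 fell together. Fbxo32 (GRCm38 chromosome 15, 58175879 to 58214932, minus strand) encodes atrogin-1, the substrate-binding F-box subunit of an SCF ubiquitin ligase whose known targets include calcineurin and the translation factor eIF3f. It stood at 80.6, 82.7, 81.6 and 55.4 CPM in the cKO hearts, at 185.7 and 196.4 CPM in floxed, and at 138.7 and 175.4 CPM in Cre. The highest cKO heart was therefore well below the lowest control heart, and cKO replicate 4 stood apart from the other cKO hearts. The controls averaged 174 ± 25.1 CPM and the cKO hearts 75.1 ± 13.1 CPM (SD over 4 hearts), a 2.31-fold fall (log2 -1.21, SE 0.14; edgeR adjusted p = 6.13e-05), and the log2 value was -1.08 without cKO replicate 4. Fbxo30 (chromosome 10, 11281330 to 11298052, plus strand) encodes MUSA1, an F-box protein that BMP signalling restrains in skeletal muscle. It stood at 14.1, 13.8, 12.2 and 11.6 CPM in cKO, 25.02 and 23.8 CPM in floxed, and 25.4 and 23.7 CPM in Cre. Its controls spread little, with an SD of 0.853 CPM over 4 hearts of both genotypes, and none came near the cKO hearts. The fall was 1.90-fold (log2 -0.92, SE 0.10; edgeR adjusted p = 4.52e-05).

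The MuRF genes encode RING-type ligases that sit on the sarcomere and on microtubules, and they moved in opposite directions. Trim63 (MuRF1, chromosome 4, 134315120 to 134329629, plus strand), the ligase known to act on troponin I and myosin heavy chain, and Trim54 (MuRF3, chromosome 5, 31116712 to 31137630, plus strand), known to stabilise microtubules, are also the 2 genes, of the 7 with a promoter window, that held a motif of those searched. Their RefSeq promoter stretches (GRCm38.p6, plus strand, from 250 bases upstream of the RefSeq start) are shown because these family members moved apart, with motif matches in capitals. They lie at chr4:134314870-134315019 for Trim63 and chr5:31116362-31116511 for Trim54.
Trim63: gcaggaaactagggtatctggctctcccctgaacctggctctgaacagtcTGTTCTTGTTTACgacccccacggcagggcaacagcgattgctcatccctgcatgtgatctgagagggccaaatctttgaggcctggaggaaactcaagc
Trim54: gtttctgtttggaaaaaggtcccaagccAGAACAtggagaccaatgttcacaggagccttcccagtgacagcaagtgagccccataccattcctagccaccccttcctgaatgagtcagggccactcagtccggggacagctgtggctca
In Trim63 the capitals mark a glucocorticoid receptor arm, TGTTCT, starting 200 bases upstream, and directly after it the FoxO core GTAAACA read on the other strand (TGTTTAC), 194 bases upstream. In Trim54 they mark the same receptor arm on the other strand (AGAACA), 222 bases upstream. Windows of 300 bases from 250 before to 50 after the start were searched on both strands, and 7 of the 10 genes had one in the RefSeq table; Fbxo32, Trim55 and Foxo4 did not. GTAAACA occurred in 3.65% of 32851 promoters and in 1 of the 7, and CAAAACA, the insulin response core, in 6.28% and in 0 of the 7. TGTTCT occurred in 19.0% of promoters and in 2 of the 7. The full glucocorticoid response element, which joins AGAACA and TGTTCT across a spacer and so contains that arm, occurred in 0.00913% and in 0 of the 7. Only exact letters were counted. In Trim63 the letters before the receptor arm, tgaacagtc, differ from AGAACA and its spacer in the first base alone. A match describes letters and not a bound site.

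Trim63 stood at 119.7, 75.4, 105.1 and 90.03 CPM in cKO, 194.6 and 200.3 CPM in floxed, and 188.5 and 143.4 CPM in Cre. Every cKO heart was below every control heart, with Cre replicate 2 the nearest control. The fall was 1.86-fold (log2 -0.89, SE 0.14; edgeR adjusted p = 0.000496). Trim55 (MuRF2, chromosome 3, 19644474 to 19692421, plus strand), which binds titin and the autophagy receptor Nbr1, stood at 37.6, 28.2, 24.8 and 20.7 CPM in cKO. The floxed hearts held 72.4 and 78.9 CPM of it and the Cre hearts 83.9 and 74.5 CPM. No other gene of the 10 fell as far. The controls averaged 77.4 ± 5.13 CPM and the cKO hearts 27.8 ± 7.21 CPM (SD over 4 hearts), a 2.79-fold fall (log2 -1.48, SE 0.16; edgeR adjusted p = 7.18e-05). Trim54 stood at 290.6, 327.2, 306.1 and 212.9 CPM in cKO, 181.1 and 150.03 CPM in floxed, and 130.2 and 187.3 CPM in Cre. Here the cKO hearts were the high ones, and cKO replicate 4 came closest to the controls. The rise was 1.75-fold (log2 0.81, SE 0.16; edgeR adjusted p = 0.00158). This rise was not called once transcript length and GC content were adjusted for (log2 0.23, adjusted p = 0.344), as described further on.

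Per kilobase of the longest annotated transcript, Trim54 and Trim63 had the highest levels of the 10 genes in control hearts, at means of 113.1 and 96.3 CPM per kb, and their ranges overlapped. Trim55 followed at 29.8 and Fbxo32 at 24.95 CPM per kb. Klf15 (18.6), Foxo4 (17.2), Foxo3 (14.8) and Mul1 (13.7 CPM per kb) came next, each overlapping its neighbour in that order, and Fbxo30 (4.84) and Foxo1 (3.14 CPM per kb) were lowest. Neighbouring ranges were separate only after Trim63, after Mul1 and after Fbxo30. In cKO hearts the order changed below the top. Trim54 stood alone at 198.2 CPM per kb, Trim63 followed at 51.7, and Foxo4 (12.8), Klf15 (11.9), Mul1 (10.9), Fbxo32 (10.8), Trim55 (10.7) and Foxo3 (7.89 CPM per kb) formed a run of overlapping neighbours. Fbxo30 (2.55) and Foxo1 (2.51 CPM per kb) were again lowest, and here their ranges overlapped.

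The summed level of the MuRF family per length overlapped between groups, at 260.6 ± 37.7 CPM per kb in cKO and 239 ± 14.3 CPM per kb in controls (SD, n = 4 each). Its makeup did not overlap. Trim54 made up 72.2 to 81.8% of the family in the cKO hearts and 40.7 to 55.5% in the control hearts. The share of Trim63 was 14.3 to 23.4% in cKO against 32.3 to 44.8% in controls, and that of Trim55 3.43 to 5.16% against 10.8 to 14.5%. The ratio of Trim54 to Trim55 per length ran from 14 to 22.3 in cKO and from 2.81 to 4.55 in controls. By contrast, the ratio of Fbxo32 to Trim63, the pair most often read as markers of muscle atrophy, ran from 0.166 to 0.297 in cKO and from 0.199 to 0.331 in controls, so those ranges overlapped. No test was made of these shares and ratios. They also carry no adjustment for length and GC content. Under that adjustment the log2 fold change was 0.23 for Trim54 (not called), -1.12 for Trim63 and -1.44 for Trim55.

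**Figure D2:**
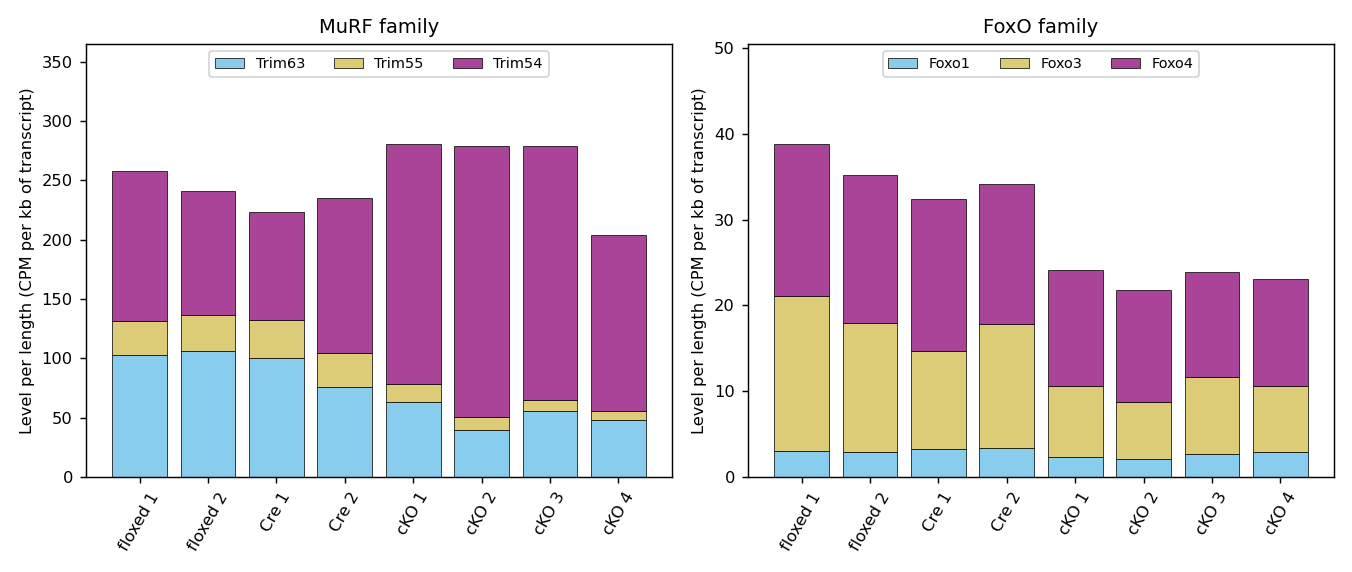
Level per length (CPM per kb of the longest transcript, stacked bars from 0) of the MuRF genes (left) and of Foxo1, Foxo3 and Foxo4 (right) in each of the 8 hearts. Levels carry no length and GC adjustment. Trim54 takes 72.2 to 81.8% of the MuRF bar in cKO and at most 55.5% in controls, while the FoxO bar is shorter in every cKO heart.

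Mul1 (chromosome 4, 138434671 to 138442265, plus strand) encodes a ligase of the outer mitochondrial membrane that acts on the fusion protein mitofusin 2. It stood at 41.98, 41.7, 43.7 and 45.1 CPM in cKO, 54.4 and 56.1 CPM in floxed, and 47.99 and 57.9 CPM in Cre. The groups did not overlap, but Cre replicate 1 was close to the highest cKO heart. The fall was small, 1.25-fold (log2 -0.33, SE 0.09; edgeR adjusted p = 0.00814), and with library size alone as the scaling it was not called (log2 -0.19, adjusted p = 0.114).

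Foxo1, Foxo3 and Foxo4 encode forkhead factors that bind the same core sequence and differ in abundance between tissues. Foxo3 (chromosome 10, 42181841 to 42276755, minus strand), which is known to drive Fbxo32 and autophagy genes in muscle, stood at 56.3, 45.5, 61.95 and 52.4 CPM in cKO. The floxed hearts held 123.7 and 103.1 CPM and the Cre hearts 78.5 and 99.7 CPM. All cKO hearts were below all controls, and the controls themselves spread widely, with Cre replicate 1 the lowest. The fall was 1.86-fold (log2 -0.89, SE 0.12; edgeR adjusted p = 0.000143). Foxo4 (chromosome X, 101254528 to 101260873, plus strand) stood at 42.7, 41.1, 38.6 and 39.4 CPM in cKO, 56.2 and 54.5 CPM in floxed, and 55.9 and 51.4 CPM in Cre. Both groups were tight, and the fall was 1.35-fold (log2 -0.43, SE 0.08; edgeR adjusted p = 0.000959).

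Foxo1 (chromosome 3, 52268336 to 52353221, plus strand), which also acts in endothelial cells, had a small fold change, like Mul1. It stood at 20.5, 18.2, 22.9 and 25.3 CPM in cKO, 26.0 and 25.6 CPM in floxed, and 28.1 and 29.01 CPM in Cre. The highest cKO heart nearly reached the floxed hearts. The fall was 1.25-fold (log2 -0.32, SE 0.11; edgeR adjusted p = 0.0288). This call was lost on leaving out cKO replicate 2 (adjusted p = 0.0702), floxed replicate 1 (0.0775) or 2 (0.0608), or Cre replicate 1 (0.0535) or 2 (0.0578), and the direction turned under the length and GC adjustment (log2 0.14, adjusted p = 0.437). Summed per length, the FoxO family stood at 23.2 ± 1.06 CPM per kb in cKO and 35.1 ± 2.73 CPM per kb in controls (SD, n = 4 each). The 4 cKO hearts ran from 21.8 to 24.1 and the controls from 32.4 to 38.8 CPM per kb. The share of Foxo3 in that sum was 33.95 ± 3.02% in cKO and 41.8 ± 4.63% in controls, and that of Foxo4 55.2 ± 3.64% and 49.2 ± 3.80%. Both shares overlapped between the groups. That of Foxo3 ran from 30.55 to 37.86% in cKO and 35.43 to 46.51% in controls, and that of Foxo4 from 51.1 to 59.78% and 45.76 to 54.55%. The ratio of Foxo3 to Foxo1 ran from 2.62 to 3.47 in cKO and from 3.54 to 6.02 in controls, with the Cre hearts nearest to cKO.

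Klf15 (chromosome 6, 90462576 to 90475238, plus strand), which in heart is known for its daily rhythm and for driving the potassium channel subunit gene Kcnip2, stood at 23.8, 28.6, 33.3 and 32.6 CPM in cKO. The floxed hearts held 50.2 and 54.4 CPM and the Cre hearts 38.8 and 41.4 CPM. The 3 groups lay one below another, with floxed highest and cKO lowest. The fall against both controls was 1.55-fold (log2 -0.63, SE 0.11; edgeR adjusted p = 0.00077). The promoters of Klf15 and Foxo1 are shown beside those of Trim63 and Trim54 for their base content, as a stretch upstream of the RefSeq start (GRCm38.p6, plus strand), with each CG pair in capitals. They lie at chr6:90462426-90462525 for Klf15 and chr3:52268187-52268286 for Foxo1.
Klf15: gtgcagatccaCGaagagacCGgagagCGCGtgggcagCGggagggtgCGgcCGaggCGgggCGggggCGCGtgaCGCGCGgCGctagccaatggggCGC
Foxo1: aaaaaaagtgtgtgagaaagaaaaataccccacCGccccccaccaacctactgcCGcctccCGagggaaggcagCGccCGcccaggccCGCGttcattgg
Over the 250 bases upstream of the start, Trim63 held 4 CG pairs and Trim54 held 2, against a median of 6 over all promoters. The transcription factor genes and the other ligase genes with a promoter held more, with 16 in Mul1, 20 in Foxo1, 31 in Foxo3, 37 in Klf15 and 40 in Fbxo30. GC content over the same bases was 80.4% in Fbxo30 and 76.4% in Foxo3, and 56.8% in Trim63 and 52.8% in Trim54, against a median of 52.4%. The genes that fell therefore included both CG-poor and CG-rich promoters.

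Set against each control genotype on its own, the direction of all 10 genes was the same. Against floxed hearts, 8 genes were called lower and 1 higher, where the background over all genes was 23.1% lower and 19.8% higher. Foxo1 was the one not called (log2 -0.25, adjusted p = 0.154). Against Cre hearts, 9 were called lower and 1 higher, with a background of 22.8% and 19.6%. These comparisons share the cKO hearts. For Fbxo32 the log2 fold change was -1.35 against floxed and -1.07 against Cre, for Trim63 -1.02 and -0.77, for Foxo3 -1.07 and -0.72, and for Klf15 -0.82 and -0.44. Trim55 (-1.45 and -1.51), Fbxo30 (-0.92 and -0.93), Foxo4 (-0.45 and -0.41), Mul1 (-0.36 and -0.30) and Trim54 (0.78 and 0.84) differed less between the controls. The comparison of Cre with floxed hearts tests that difference, and it called none of the 10 in edgeR, DESeq2 or limma voom, where 0.0981% of all genes (15 genes) were called in edgeR. In edgeR, 1 of the 10, Klf15 (log2 -0.38), had an unadjusted p under 0.05, and Foxo3 was at log2 -0.35. Calls against 1 control genotype moved with single hearts. Without Cre replicate 1, Trim63 (log2 -0.55), Trim54 (0.60), Foxo4 (-0.34), Klf15 (-0.48) and Foxo1 (-0.41) lost their calls against Cre. Without Cre replicate 2, Mul1 (log2 -0.19), Foxo1 (-0.40) and Klf15 (-0.43) lost theirs against Cre. That call of Mul1 was also lost without cKO replicate 2 or 3 or either floxed heart, and that of Foxo1 without cKO replicate 2 or floxed replicate 1. Against floxed, Trim54 lost its call without floxed replicate 2 (log2 0.64), and Mul1 without floxed replicate 1 (-0.39) or 2 (-0.34). Leaving out a control heart keeps 1 heart of that genotype. Over all genes, fewer were then called in both directions against that genotype than in the main fit. Foxo1 was called against floxed without cKO replicate 4 (edgeR adjusted p = 0.0472).

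**Figure D3:**
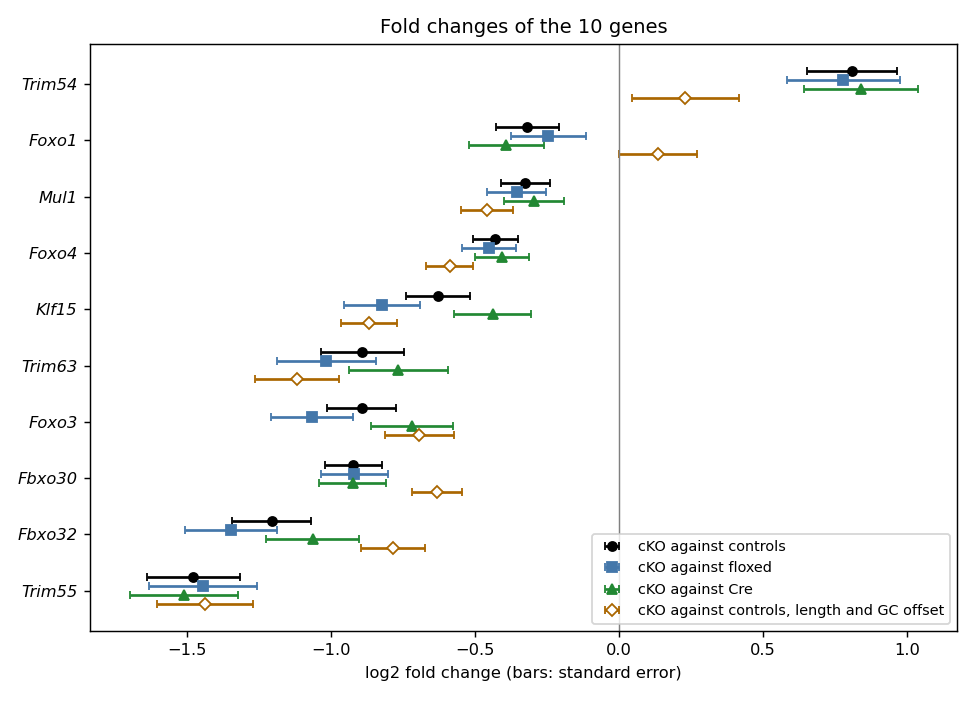
Log2 fold change (x axis) of the 10 genes in cKO against both controls, against floxed, against Cre, and against both controls with the length and GC adjustment; bars are standard errors. The unadjusted values lie below 0 for 9 genes and above 0 for Trim54, and the adjusted value of Foxo1 crosses to 0.14.

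Transcript length went with the fold change over the whole heart transcriptome, and the 10 genes span a wide range of lengths, from 1434 bp in Trim54 to 8665 bp in Foxo1. Among coding genes with a longest transcript of 1000 to 2000 bp, which include Trim54 and Trim63, the median log2 fold change was 0.40, and 45.8% were called higher and 7.64% lower. Among those of 7000 bp or more, which include Foxo1, it was -0.39, with 50.97% called lower and 7.93% higher. Fbxo32, Fbxo30 and Foxo3 fall in the class of 4000 to 7000 bp (median -0.18, 39.6% lower), and Trim55, Mul1, Foxo4 and Klf15 in that of 2000 to 4000 bp (median 0.05, 25.3% lower). Of the 10 genes, 7 (Fbxo32, Trim63, Trim55, Fbxo30, Foxo3, Foxo4 and Klf15) lay below the lower quartile of their own class, and Trim54, Mul1 and Foxo1 lay within the quartiles. Trim63, a short transcript that fell, thus went against the direction of its class. With a per-library offset for length and GC content, 24% of all genes were called lower and 21.3% higher, and of the 10 genes 8 were called lower and 0 higher. Under it the log2 fold change was -0.79 for Fbxo32, -1.12 for Trim63, -1.44 for Trim55, -0.63 for Fbxo30, -0.46 for Mul1, -0.69 for Foxo3, -0.59 for Foxo4 and -0.87 for Klf15. The part of transcript length in the remaining values was not tested.

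**Figure D4:**
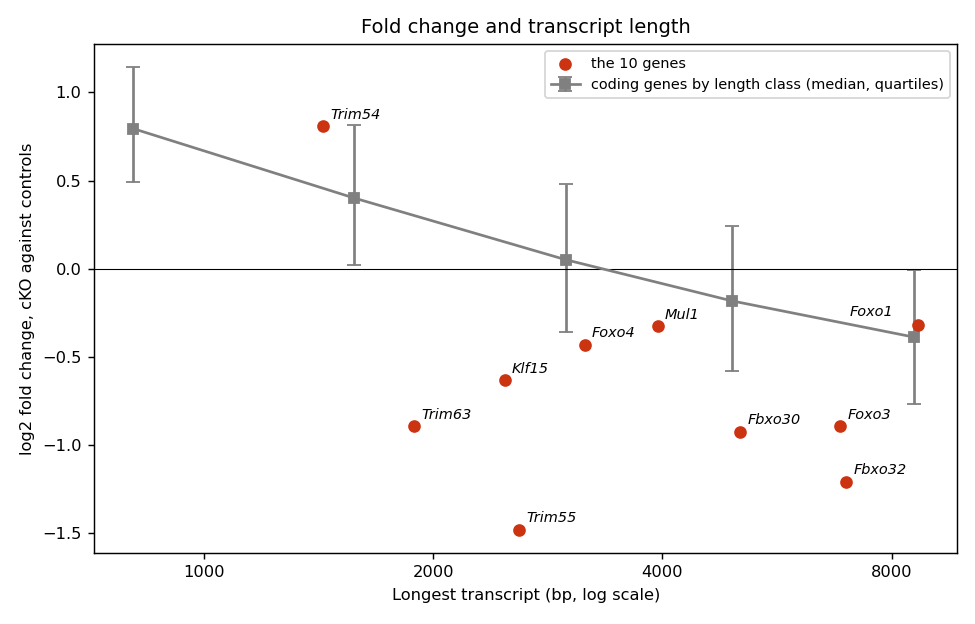
Log2 fold change in cKO against controls (y axis) against the longest annotated transcript (x axis, log scale) for the 10 genes, with grey squares and bars for the median and quartiles of all tested coding genes in 5 length classes. Trim54, Mul1 and Foxo1 lie within the quartiles of their class, and the other 7 lie below them.

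Of 24 genes that FoxO factors are known to switch on, 12 were called lower and 2 higher (edgeR, adjusted p under 0.05), with a median log2 fold change of -0.48 against 0.04 over all genes. The background for this list and those that follow is 26.5% of all tested genes lower and 25.6% higher, or 24% and 21.3% with the length and GC adjustment. Insr, the insulin receptor, fell 1.98-fold, from 158 ± 8.45 to 79.9 ± 10.53 CPM (SD, n = 4 each), and its log2 value went from -0.99 to -0.51 with that adjustment. Txnip, the inhibitor of thioredoxin, fell 2.33-fold, with widely spread controls (545.3 ± 188 CPM). Sesn1, a stress-induced regulator of mTORC1 (log2 -0.58), and Fbxo21, an F-box gene that FoxO controls in muscle (log2 -0.65), also fell. The 10 not called included the autophagy genes Map1lc3b (log2 0.02), Gabarapl1 (-0.05) and Bnip3 (-0.04), named after their values were seen. Of the same kind, Atg12 (log2 -0.46) and Pink1 (-0.42) were called lower. With the length and GC adjustment the call of Atg12 was lost (log2 -0.19, edgeR adjusted p = 0.0932). Eif4ebp1, the translation repressor (log2 0.32, adjusted p = 0.0223), and Rictor, a subunit of mTORC2 (log2 0.27, adjusted p = 0.0481), rose, and both calls were lost without cKO replicate 3, floxed replicate 1 or floxed replicate 2. Only 1 gene of the list was called higher without cKO replicate 2, Cre replicate 1 or Cre replicate 2. Against floxed hearts neither was called (adjusted p = 0.239 and 0.0875), nor was Rictor against Cre (0.145), and the length and GC adjustment gave Rictor a log2 value of 0.76. Under that adjustment 9 of the 24 were called lower and 3 higher, with a median of -0.28.

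The list of 24 genes that act upstream of FoxO, from insulin receptor to Akt, AMPK and 14-3-3 proteins, had 15 called lower and 1 higher, with a median of -0.42. It includes Foxo6, itself a FoxO gene, which was not called. Stk4, the MST1 kinase that phosphorylates FoxO, fell (log2 -1.04), as did Pdpk1, the kinase that activates Akt (log2 -1.09). Prkaa2, the AMPK catalytic subunit of heart and muscle, fell 4.22-fold, from 152.0 ± 8.00 to 36.1 ± 10.6 CPM (SD, n = 4 each). Insr stands in this list too. Akt1 (log2 -0.41), Akt2 (-0.36), Irs1 (-2.42) and Irs2 (-3.05), the docking proteins of the insulin receptor, also fell and are named after their values were seen, as is Ikbkb, the IκB kinase that rose (log2 0.35, adjusted p = 0.0076). With the adjustment for length and GC, 11 were called lower and 4 higher, with a median of -0.30, and Pdpk1 went to -0.65 and Akt1 to -0.77. RNA levels do not show the phosphorylation that controls FoxO.

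Of 23 other ubiquitin ligases of muscle, 15 were called lower and 3 higher, with a median of -0.42. Fbxo40, a muscle F-box ligase of Irs1, fell 1.88-fold, from 232.6 ± 9.83 to 123.7 ± 10.8 CPM (SD, n = 4 each). Wwp1 (log2 -1.07) and Nedd4 (log2 -0.98), ligases of the HECT class, fell as well. Fbxl22, an F-box gene of the cardiac sarcomere, rose 2.12-fold, from 69.9 ± 7.76 to 148 ± 28.2 CPM. Stub1 (the co-chaperone CHIP, log2 0.76) and Rnf207 (log2 0.58) rose too and are named after their values were seen. Under the length and GC adjustment 10 were called lower and 2 higher, with a median of -0.25. Stub1 was then not called (log2 0.22, adjusted p = 0.0518), and Wwp1 was at -0.67. The 16 genes of the SCF core, its neddylation and ubiquitin-conjugating enzymes had 7 lower and 3 higher and a median of -0.21. The conjugating enzyme Ube2g1 (log2 -0.95) and Cul1, the scaffold of SCF ligases (-0.57), fell, and Nedd8, the modifier that activates cullins (0.70), and its conjugating enzyme Ube2m (0.64) rose. The third that rose was Rbx1, the RING subunit of SCF ligases (log2 0.54). The rises of Nedd8 and Ube2m shrank to log2 0.06 and 0.02 with the length and GC adjustment, under which 5 of the 16 were lower and 2 higher.

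Among 17 binding partners and substrates of the ligases, 9 were called lower and 3 higher, with a median of -0.29. Mfn2, the mitofusin on which Mul1 acts, fell 2.21-fold, from 830.0 ± 39.3 to 375.9 ± 31.1 CPM (SD, n = 4 each). Nbr1, an autophagy receptor that binds MuRF2 (log2 -0.83), Dnm1l, the mitochondrial fission GTPase (-0.64), and Ppp3cb, a catalytic subunit of calcineurin (-0.59), fell. The 3 that rose were Tnni3, cardiac troponin I (log2 0.69), Ckm, muscle creatine kinase (0.62), and Eif3f, the translation factor bound by atrogin-1 (0.54). With the length and GC adjustment 9 were lower and 2 higher, with a median of -0.37, and the rise of Tnni3 was not called (log2 0.05, adjusted p = 0.651).

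Of 12 glucocorticoid response genes, 5 were called lower and none higher against both controls, with a median of -0.39. Set against each control genotype, 6 were lower against floxed (median -0.59) and 2 against Cre (median -0.11), and the median of Cre against floxed was -0.61, with 1 of the 12 called lower. Over all genes tested, 23.1% were called lower against floxed and 22.8% against Cre. In Cre against floxed, 0.0981% of all genes were called in either direction. The medians over all genes were 0.04 against floxed, 0.03 against Cre and -0.0008 in Cre against floxed. Nr3c1, the glucocorticoid receptor, had 85.97 ± 3.59 CPM in controls and 45.8 ± 6.28 CPM in cKO (SD, n = 4 each), a fall of 0.91 on the log2 scale, and Nr3c2, the mineralocorticoid receptor, by 0.66 on the log2 scale. Zbtb16 (log2 -1.31) and Errfi1 (log2 -1.18), transcripts induced by glucocorticoids, were the others beside Dusp1. Against Cre alone neither Zbtb16 (log2 -0.96, adjusted p = 0.0537) nor Errfi1 (log2 -0.32, adjusted p = 0.563) was called, and for Errfi1 the cKO hearts (15.8 to 32.7 CPM) overlapped the Cre hearts (26.4 to 27.8 CPM). Dusp1, a MAP kinase phosphatase, was called between the control genotypes. It stood at 349.5 and 423.2 CPM in floxed and 81.9 and 121.5 CPM in Cre, with 56.9 to 92.6 CPM in cKO, so that cKO overlapped Cre. Its log2 fold change was -2.48 against floxed and -0.56 against Cre (edgeR adjusted p = 0.0612). Without cKO replicate 1, 3 genes of this list were called higher. Under the length and GC adjustment the counts were 5 and 0, with Nr3c1 at -0.51 and Nr3c2 at -0.32.

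The list of 18 Klf15 targets and other KLF genes had 9 called lower and 2 higher, with a median of -0.45. Kcnip2, the channel subunit under Klf15 control, fell 1.74-fold, from 175.9 ± 7.12 to 101.4 ± 13.4 CPM (SD, n = 4 each). Klf9, a glucocorticoid-induced factor, fell 3.31-fold, from 105.8 ± 14.9 to 31.9 ± 9.77 CPM. Klf4 (log2 -1.13) and Klf6 (-0.84) fell against the mean of both controls. Klf4 differed between the controls, at 106.0 and 138.9 CPM in floxed and 42.5 and 51.8 CPM in Cre, beside 27.5 to 43.1 CPM in cKO, and its fall against Cre alone was not called (log2 -0.45, edgeR adjusted p = 0.0637). Prodh, an enzyme of proline breakdown (log2 0.89), and Klf10 (log2 0.77) rose, and 1 gene of the list was called higher without floxed replicate 1 or Cre replicate 2. Klf10 was called against neither control genotype alone (adjusted p = 0.0791 against floxed and 0.0537 against Cre). With the length and GC adjustment 10 were lower and 2 higher, with a median of -0.43. Of 22 genes of activin and BMP signalling, which acts on muscle mass through Fbxo30 and FoxO, 20 were tested, with 8 lower and 3 higher and a median of -0.43. The BMP receptors Bmpr1a (log2 -1.05) and Bmpr2 (-0.75) fell, as did the shared mediator Smad4 (-0.67). Smad2, a mediator of activin signals (-0.71), was not called with the length and GC adjustment (log2 -0.23, adjusted p = 0.139), which also brought Bmpr1a to -0.69 and Bmpr2 to -0.27. Smad1, a BMP mediator (log2 0.35), Fstl3, an activin-binding protein (0.65), and Id1, a BMP target (0.64), were called higher against both controls. Id1 was called against Cre (log2 1.22) and not against floxed (0.06, adjusted p = 0.843), whose hearts (51.7 and 53.7 CPM) lay within the cKO range (35.5 to 66.1 CPM). Smad1 was not called against floxed alone (adjusted p = 0.103), and Fstl3 against neither genotype alone (0.0597 and 0.218). With the length and GC adjustment Id1 (log2 0.13, adjusted p = 0.504) and Fstl3 (0.24, adjusted p = 0.372) were not called. None of these 3 calls remained without Cre replicate 1, and 1 gene was called higher without cKO replicate 4, floxed replicate 1, floxed replicate 2 or Cre replicate 2. With the length and GC adjustment 7 were lower and 2 higher, with a median of -0.19.

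**Figure D5:**
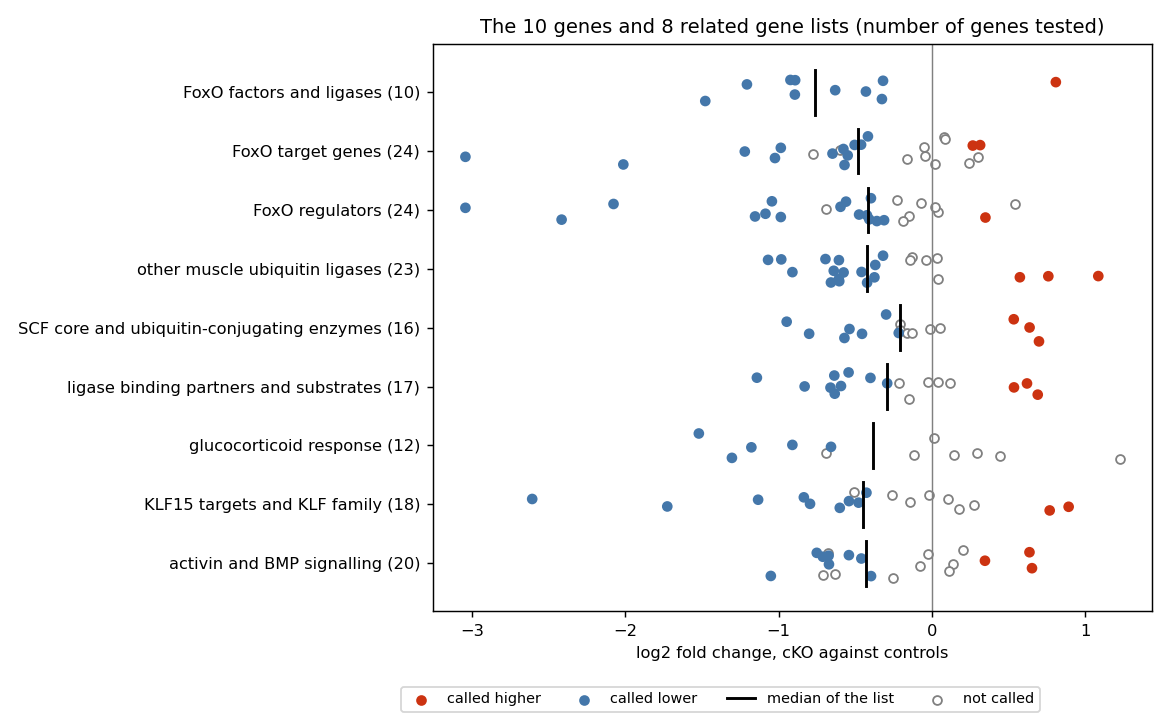
Log2 fold change in cKO against controls (x axis) for each tested gene (points) of the 10 genes and of 8 related lists; blue points were called lower, red points higher, open points were not called, and the black bar is the list's median. Medians run from -0.76 for the 10 genes to -0.21 for the SCF core list.

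Genes whose log2 CPM followed that of a gene most closely over the 8 hearts were ranked by Pearson's r among 8084 genes with a mean of at least 10 CPM. The hearts fall into cKO and control clusters, and all genes were measured in the same 8 libraries, so r is a description and no test was made. For Fbxo32 the leading genes were Tfg (0.995), Stk40 (0.994) and Usp13 (0.993), for Trim63 Gpn3 (0.995), Agap1 (0.993) and H1f0 (0.991), and for Foxo3 Pgm1 (0.991), Jph2 (0.991) and Coa7 (0.990). For Foxo1 they were Nkapd1 (0.988), Emilin2 (0.972) and Ankrd13c (0.972), and for Klf15 Ccdc71l (0.967), Sar1a (0.964) and Pqlc1 (0.959). No gene was among the 3 leading ones of more than 1 of these 5.

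Several of the 10 genes overlap others in the annotation, and whether the counting used strand is not given in the sources used here. An antisense gene at Fbxo32, Gm15943, had a mean of 3.38 CPM, Gm15469 at Trim54 0.905 CPM and Gm20402 at Foxo1 0.358 CPM, and BC002189 within Trim55 1.45 CPM. Reads of such pairs may have been split between them, and each of these levels is far below that of the gene it overlaps.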

How the data were processed

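RNA from 8 whole hearts was extracted with TRIzol and sequenced after NEBNext Ultra library preparation, per the labels' protocols. The authors deposited a table of estimated counts per gene made from their aligned reads; between 71.95% and 76.34% of a library's values above 0 were whole within 1e-06. STAR 2.5.1b, DESeq2, mm10 and GRCm38 are named, per the submitters' processing notes; which program counted the reads, with which annotation and strand setting, is not given in the sources used here. Estimated counts were rounded to whole numbers, since the test needs them, filtered with filterByExpr (15289 of 45706 genes kept; 21474 had no count in any library) and scaled by TMM. The 8 libraries were fitted with 3 group means (5 residual degrees of freedom) in edgeR 4.0.16 (R 4.3.3, robust), and each contrast used edgeR's quasi-likelihood test, with p values corrected by Benjamini-Hochberg over all genes tested. Standard errors (SE) come from the test statistic, and DESeq2 1.42.0 and limma 3.58.1 (voom) served as alternatives. Adjusted p values reflect only how much these hearts differ among themselves; the labels name no batch.

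Symbols, positions and transcript lengths come from GENCODE M21 (GRCm38), where 563 identifiers had no symbol, 73 of them tested. The length and GC adjustment is a smooth offset per library, fitted with mgcv 1.9.3 on the log2 length and GC content of each longest transcript for 15216 genes. Promoters come from RefSeq (GRCm38.p6), and the search for the single glucocorticoid receptor arm was added after the other motifs. Up to 4 called genes with the smallest p were named per list. The 10 genes, the lists and the alternatives were chosen with earlier results of these data known. The fitting code was tried on simulated counts in which few genes changed, equally in both directions and without a trend in length. That setting differs from these data, where many genes were called and fold change went with length. Figures were drawn with matplotlib 3.10.9.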

Additional observations from a re-analysis of the deposited data

Results flagged for a closer look

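In cKO replicate 4 the Fbxo32 level was 55.41 CPM, apart from 80.6 to 82.7 CPM in the other 3 cKO hearts. The gap was 0.924 of the group's range, above Dixon's critical value for 4 samples. The cKO values of all 10 genes were examined in this way, and chance marks about 1 group in 20. Without that heart the log2 fold change of Fbxo32 was -1.08.

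Dusp1 differed between the control genotypes, with a log2 fold change of -1.925 in Cre against floxed hearts (edgeR's quasi-likelihood test, Benjamini-Hochberg adjusted p = 0.0331). Klf4 differed in the same contrast, with a log2 fold change of -1.377 (edgeR adjusted p = 0.0459). The fold change of cKO against controls is therefore an average over unlike controls for both genes.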

How the results depend on the processing

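Each result was recomputed under 19 alternatives, with controls pooled only for cKO against controls and with fits of only the groups compared only for the other contrasts. In cKO against controls, 7 to 9 of the 10 genes were called lower, and 8 to 9 with a library left out. Fbxo32, Trim63, Trim55, Fbxo30, Foxo3, Foxo4 and Klf15 kept their direction and call under every alternative in that contrast. Over all 15289 genes in that contrast, 4050 were called lower in the main fit and 2981 with library size alone, the setting with 7 of the 10. With the length and GC offset 0 of the 10 genes were called higher against controls, 0 against floxed and 0 against Cre. Over all 15289 genes the offset gave 3250, 2396 and 2262 called higher in these contrasts. Trim54, called higher in the main fit, lost its call against floxed without floxed replicate 2 (log2 0.64). It also lost its call against Cre without Cre replicate 1 (log2 0.60). Each of these fits keeps 1 heart of the control genotype, and fewer genes were called higher over the whole table as well. In cKO against Cre, 5 of the 10 genes were called lower with library size alone, where 2588 of all 15289 genes were called lower. Fewer than in the main fit were also called with some single hearts left out.

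Foxo1 turned with the length and GC offset, to 0.14 against controls, 0.20 against floxed and 0.071 against Cre on the log2 scale; the offset changes the weight of long transcripts by construction. Foxo1 also lost its call with upper-quartile scaling (adjusted p = 0.133) and library size alone (adjusted p = 0.244). Those scalings moved the median of all genes by 0.11 and 0.12 on the log2 scale, and the higher share of calls from 49.1% to 59.3% and 61.5%; relative to that median, Foxo1 was at -0.36 in each. In Cre against floxed, where none of the 10 was called, small values changed sign. With libraries left out in turn Trim54 ran from -0.32 to 0.17, Trim55 from -0.036 to 0.175, Fbxo30 from -0.059 to 0.080, Mul1 from -0.177 to 0.056 and Foxo4 from -0.121 to 0.038. The offset gave 0.021 for Trim54 and -0.0502 for Fbxo30, and Fbxo30 was at -0.000725 with median-ratio scaling and -0.000512 in DESeq2. The cause of these changes was not tested.

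Deviations of same-numbered libraries correlated at 0.133 and -0.105 (cKO and floxed), -0.108 and -0.00167 (cKO and Cre) and -0.0448 (floxed and Cre). Replicate numbers 3 and 4 occur only in cKO. This check cannot exclude pairing, since the 2 hearts of a control group deviate by the same amount in opposite directions. The library names of the floxed hearts carry other numbers, which were not checked. With the replicate block 9 genes were again called lower and 1 higher against controls (Foxo1 -0.49, edgeR adjusted p = 0.008). In that fit 3365 of all 15289 genes were called lower and 3007 higher. Each of the 10 genes had at least 267 counts in each library, and the control genotypes had 2 hearts each.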
